A study of Mus musculus with 38 samples.

Results

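Myc and 9 genes of its growth programme, 10 of the 13260 genes in the expression table, were followed across 4 cell types sorted from mouse bone marrow. They were Myc, its antagonist Mxd4, the microRNA host gene Mir17hg, the nucleolar genes Ncl, Npm1, Gnl3, Nop56 and Fbl, the small nucleolar RNA Snord69 and the polyamine enzyme gene Odc1. All 10 were present in the table and were chosen by name. Myc, Mir17hg and Snord69 were chosen because their values were lower in myeloma cells from the bone lining than in those from the central marrow, so every member's values in that comparison are given as a description, with no test.

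The transcription factor Myc pairs with Max, binds E-box sequences and raises the transcription of genes for ribosome assembly, polyamine synthesis and cell growth. Mxd4 pairs with the same partner and represses such genes. Mir17hg, the host transcript of the miR-17-92 microRNA cluster, is a classical target of Myc. In myeloma, a cancer of plasma cells, increased activity of Myc is a frequent feature of disease progression.

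The table held 38 libraries, each made from 100 sorted cells of C57Bl/KaLwRijHsd mice. At 8 to 10 weeks of age, mice received an intravenous injection of 1000000 5TGM1-GFP cells, a single mouse myeloma line carrying green fluorescent protein, or the vehicle alone (healthy mice), and no other treatment, and the cells were sorted on day 23 after the injection. The 3 niche cell types came from the bone lining of healthy or myeloma-bearing mice. Endothelial cells (CD45- Ter119- CD31+) had 5 libraries in each condition, stromal progenitors (CD31- Sca1+ ALCAM-) had 5 in each, and osteoprogenitors (ALCAM+ Sca1-) had 4 in each. GFP+ myeloma cells came from the bone lining (5 libraries) and the central marrow (5 libraries) of myeloma-bearing mice. Each library is named here by the letter of its label, C, L, M, N or O for healthy mice and D, E, G, I or J for myeloma-bearing mice. That a letter is 1 mouse is not stated in the labels, so the spread between libraries may be partly technical.

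The 10 myeloma libraries are therefore a cell line grown in mice, and no normal plasma cells were sorted. The RPKM values (reads per kilobase of transcript and per 1000000 reads of a scaled library size) could be turned back into whole reads. There were 9735031 to 34883291 reads per library. The scaled size was the reads of a library times a factor. This factor was 1.313 to 1.596 in myeloma libraries and 0.627 to 0.885 in stromal progenitor libraries. Differences in RPKM between cell types therefore include the scaling. Endothelial, stromal progenitor, osteoprogenitor and myeloma marker genes were highest in summed RPKM in their own cell type, except for the stromal progenitor list, whose gene Ly6a also reached 8769 RPKM in endothelial cells. Stromal progenitor libraries L of healthy and E of myeloma-bearing mice stood apart, since their 4 neutrophil marker genes summed to 7233 and 8061 RPKM against at most 180 RPKM in every other stromal progenitor library. Leaving them out left the members called in the stromal progenitor comparisons below as they were, except for Mxd4.

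Mir17hg was counted over chromosome 14, 115044390 to 115046728 (GRCm38, plus strand), a span of 2339 bases. Of the 6 microRNA hairpins of the cluster, 1 lay wholly inside this span, that of miR-92a, so the values are those of the host transcript and not of the mature microRNAs, which were not measured. The mature sequences (RefSeq, GRCm38.p6) are shown because the host is named for them, with the seed, bases 2 to 8 that pair with target transcripts, in capitals.
mmu-miR-17-5p: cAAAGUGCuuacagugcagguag
mmu-miR-20a-5p: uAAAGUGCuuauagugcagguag
mmu-miR-18a-5p: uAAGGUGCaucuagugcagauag
mmu-miR-19a-3p: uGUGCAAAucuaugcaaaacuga
mmu-miR-19b-3p: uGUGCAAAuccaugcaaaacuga
mmu-miR-92a-3p: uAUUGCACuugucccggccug
The 6 microRNAs carried 4 different seeds. miR-17 and miR-20a shared one, and miR-19a and miR-19b shared another.

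Snord69 is a box C/D small nucleolar RNA, a class that guides the methylation of ribosomal RNA. It was counted over 59 bases of the minus strand (chromosome 14, 31014293 to 31014351, GRCm38) inside Gnl3, the gene for nucleostemin. Its transcript of 80 bases (chr14:31014287-31014366, minus strand) is printed because its short length shapes its values, with the box C and box D letters in capitals.
Snord69: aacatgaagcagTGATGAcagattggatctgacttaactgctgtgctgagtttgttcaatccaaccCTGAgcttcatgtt
The box C letters begin at base 13 and the box D letters at base 67. A Gnl3 transcript in the annotation covers all of it, so reads of Snord69 and of unspliced Gnl3 RNA could not be told apart. The libraries were made from poly(A) RNA, so the values are those of reads at this position. They are not a measure of the mature small nucleolar RNA.

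Bone lining and central marrow myeloma cells were compared first. Myc lay on chromosome 15, 61985341 to 61990361. In the bone lining, Myc was at 12.4, 28.01, 40.6, 25.0 and 12.1 RPKM in libraries D, E, G, I and J. In the central marrow, the same letters had 72.9, 91.7, 71.5, 103 and 85.4 RPKM. The groups did not overlap, and the bone lining was lower for 5 of 5 letters. The means were 23.6 ± 11.9 RPKM (SD, n = 5) and 84.9 ± 13.2 RPKM (SD, n = 5), a central marrow mean 3.59 times that of the bone lining and a difference of -1.93 on the log2(RPKM + 1) scale (SE 0.32).

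Mir17hg followed the same order at lower levels. It was at 1.13, 1.64, 1.17, 0 and 0.160 RPKM in bone lining libraries D, E, G, I and J, from at most 65 reads. The central marrow libraries had 13.0, 21.2, 24.9, 8.06 and 4.15 RPKM, from 207 to 1343 reads. Every bone lining library was below every central marrow library. The listed 0 in library I would allow up to 0.0503 RPKM, the value of 3 reads, and such limits cover counting error only. On the log2(RPKM + 1) scale the difference was -2.94 (SE 0.51), which depends on the pseudocount of 1.

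Snord69 reads were few. The bone lining libraries D, E and I had none, G had 10 reads (7.48 RPKM) and J had 8 reads (10.1 RPKM). In the central marrow it had 52, 30, 41, 50 and 27 reads in the same letters, or 18.8 to 42.6 RPKM. Again the groups did not overlap. The means were 3.53 ± 4.92 RPKM and 31.5 ± 10.99 RPKM (SD, n = 5 each).

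**Figure D1:**
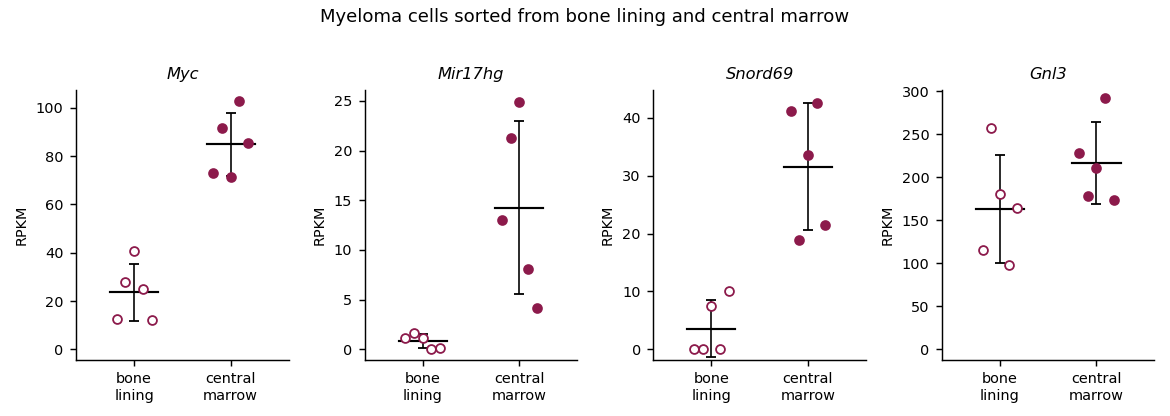
Levels in RPKM (vertical axes) of Myc, Mir17hg, Snord69 and Gnl3 in 5 bone lining and 5 central marrow myeloma libraries (horizontal axis), with points for libraries and bars for the mean ± SD. Myc, Mir17hg and Snord69 show no overlap between the groups, while Gnl3, which contains Snord69, overlaps.

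Gnl3, the host gene, was at 115, 257, 181, 98.6 and 165 RPKM in the bone lining and at 228, 179, 211, 292 and 174 RPKM in the central marrow. These groups overlapped, and library E was higher in the bone lining. The log2 difference was -0.46 (SE 0.26). Snord57, another small nucleolar RNA, lies inside Nop56 (chromosome 2, 130278026 to 130278088) and its groups overlapped, with a median of 7.71 RPKM in the bone lining and of 0 in the central marrow, on at most 48 reads.

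The other members overlapped between the 2 myeloma groups. Npm1, a histone chaperone and the most abundant member per length, averaged 595 ± 56.6 RPKM in the bone lining and 563 ± 90.8 RPKM in the central marrow (SD, n = 5 each). The rRNA-processing protein gene Ncl had a log2 difference of -0.12, Nop56 of 0.19 and Odc1 of 0.48. Mxd4 differed by 0.39 and spread widely in the bone lining, from 0.299 to 40.7 RPKM, against 3.80 to 14.3 RPKM in the central marrow. Fbl, the methyltransferase of box C/D particles, did not pass the filter on low values, which 9 of the 10 members passed.

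The 3 members without overlap are set by their choice. Over all 8857 genes tested, 0.565% had every bone lining library below every central marrow library and 0.903% had every one above. Of the same genes 0.203% were called, 0.147% higher and 0.0565% lower in the bone lining. A gene was called here and below where limma gave a Benjamini-Hochberg adjusted p below 0.1 over all genes tested and the log2 difference exceeded 1 in size.

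Targets, partners and regulators of Myc were next examined in lists that hold no member. None of the 129 genes tested in 5 growth lists was called in the bone lining comparison by limma, nor by voom-limma on the recovered reads, and 8 had an unadjusted p below 0.05, as did 5.98% of all genes. The lists were ribosome assembly (59 genes), RNA polymerase I (13), the Myc network of Max partners and Myc regulators (19), polyamine enzymes (7) and metabolic genes (31). The median log2 difference of the ribosome assembly genes was -0.050. Their summed level ran from 3420 to 5674 RPKM in the bone lining and from 3838 to 5139 RPKM in the central marrow, so the groups overlapped.

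Within that list, Rrs1 and Bysl, which assemble the large and the small ribosomal subunit, had no overlap between the groups and lay lower in the bone lining, as did 0.565% of all genes. Rrs1 averaged 8.26 ± 1.69 RPKM in the bone lining and 18.3 ± 9.404 RPKM in the central marrow (SD, n = 5 each), and the adjusted p from limma was 0.775. Bysl averaged 5.59 ± 1.88 and 10.5 ± 2.74 RPKM, with an adjusted p from limma of 0.832. Neither was called. Both were singled out after their values were seen.

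Of the listed targets of the miR-17-92 microRNAs, 0 of 9 tested were called by limma or by voom-limma, with a median log2 difference of -0.067. Proliferation genes gave 0 of 18, with a median of 0.026. Of the immediate-early genes, which respond within minutes to stimuli, 2 of 9 were called higher in the bone lining (1 by voom-limma, and 0 without the filter on low values), where 0.147% of all genes were called higher. Fos, Fosb, Junb and Nr4a1, 4 of the 9, were higher in every bone lining library than in every central marrow one, as were 0.903% of all genes. Fos averaged 93.2 ± 51.9 RPKM there and 8.33 ± 10.1 RPKM in the central marrow (SD, n = 5 each). Fosb averaged 15.7 ± 10.0 and 0.656 ± 0.931 RPKM. The summed level of the immediate-early list was 184 to 445 RPKM in the bone lining and 128 to 191 RPKM in the central marrow, which overlapped. Bone lining cells were released with collagenase from cleaned bone fragments, whereas the study describes central marrow cells of another of its experiments as flushed out, so the site and the preparation of the cells cannot be told apart. The part of the immediate-early difference in the Myc values was not tested.

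Markers of the other cell types were summed in both myeloma groups. The 6 stromal progenitor markers summed to 0.4999 to 38.1 RPKM in the bone lining and 0.140 to 4.73 RPKM in the central marrow. The 9 osteoprogenitor markers summed to 26.3 to 76.9 and 38.3 to 97.7 RPKM, and the 8 endothelial markers to 6.27 to 18.3 and 4.39 to 23.8 RPKM. Macrophage and osteoclast markers (6 genes) summed to 170 to 903 and 406 to 638 RPKM, neutrophil markers (4 genes) to 0 to 18.9 and 0.470 to 44.4 RPKM, and the erythroid gene Alas2 was at 0 to 14.3 and 0 to 13.0 RPKM. The 7 myeloma markers summed to 5213 to 10799 RPKM in the bone lining and 4011 to 8751 RPKM in the central marrow. In each of these lists the bone lining and central marrow groups overlapped. The macrophage and osteoclast sum had a higher median in myeloma cells (524 RPKM) than in endothelial cells (7.31 RPKM), stromal progenitors (337 RPKM) or osteoprogenitors (334 RPKM), with Cd68, a gene of that list, at 543 ± 195 RPKM in myeloma cells (SD, n = 10). That higher median rested mostly on Cd68, and other genes of the list went the other way. Ctsk averaged 1.495 RPKM in myeloma cells, 319 RPKM in stromal progenitors and 244 RPKM in osteoprogenitors. Acp5 was likewise lower in myeloma cells than in those niche types, and Csf1r was at 0 in every central marrow library. The part of the macrophage and osteoclast genes in the results was not tested.

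**Figure D2:**
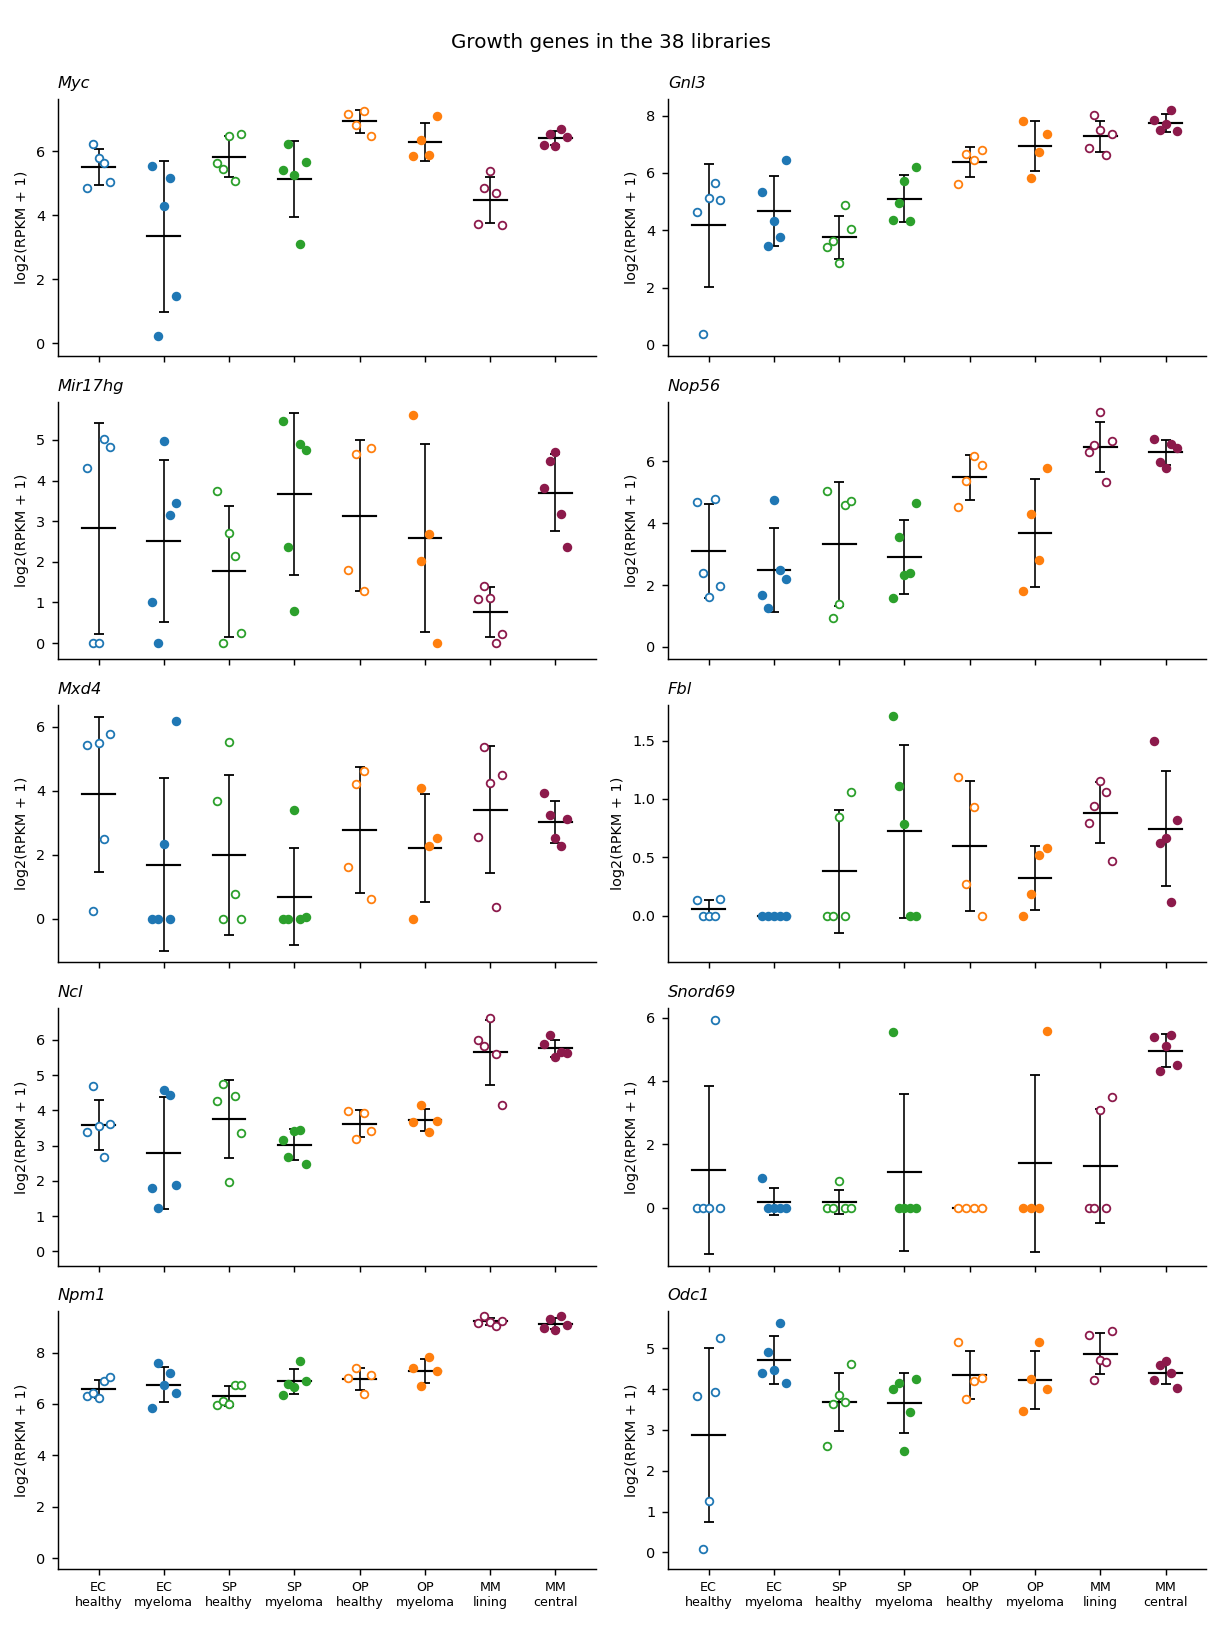
Levels of the 10 members on the log2(RPKM + 1) scale (vertical axes) in each of 38 libraries, arranged by the 8 groups (horizontal axis), with points for libraries and bars for the mean ± SD. Npm1 is highest in all 10 myeloma libraries, whereas Myc in the myeloma libraries lies within the range of the niche libraries.

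Myc was expressed in all 4 cell types. On the log2(RPKM + 1) scale, its level was 6.62 in osteoprogenitors, 5.48 in stromal progenitors, 5.44 in myeloma cells and 4.43 in endothelial cells (means of the 2 group means). The place of myeloma cells in this order is a description, since their values entered the choice of Myc. Between osteoprogenitors and stromal progenitors the difference was not called (1.13, limma adjusted p = 0.228), nor between endothelial cells and stromal progenitors (-1.06, limma adjusted p = 0.120). Across the 28 niche libraries Myc ran from 0.185 to 150 RPKM, and the 12.1 to 103 RPKM of the 10 myeloma libraries lay inside that range.

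In osteoprogenitors of healthy mice Myc was at 143, 113, 150 and 87.9 RPKM in libraries L, M, N and O, above every bone lining myeloma library. The central marrow libraries overlapped with them. The log2 difference of myeloma cells was -1.17 (SE 0.51) against osteoprogenitors, and -0.86 with niche libraries of myeloma-bearing mice only. Against stromal progenitors it was -0.040 (SE 0.48). Neither is given a test, since the low bone lining values make up 5 of the 10 myeloma libraries. Myc was lower in endothelial cells than in osteoprogenitors, by a log2 difference of -2.19 (SE 0.51, adjusted p = 0.00112 by limma with Benjamini-Hochberg adjustment).

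Against endothelial cells, Myc in myeloma cells had a log2 difference of 1.02 (SE 0.48), again with no test. That value rested on few libraries. Endothelial libraries of healthy mice had 27.9, 74.2, 54.7, 49.1 and 31.9 RPKM in C, L, M, N and O, and those of myeloma-bearing mice had 45.8, 0.185, 18.5, 35.0 and 1.76 RPKM in D, E, G, I and J. Libraries E and J stood far below the rest. With endothelial libraries of healthy mice only, the log2 difference was -0.0704, and without letter E it was 0.57.

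Mir17hg did not follow a cell type. It ranged from 0 to 31.5 RPKM in endothelial cells, from 0 to 42.9 RPKM in stromal progenitors, from 0 to 48.1 RPKM in osteoprogenitors and from 0 to 24.9 RPKM in myeloma cells. All 4 ranges overlapped. Myeloma cells differed from the niche types by -0.44, -0.48 and -0.62 on the log2 scale against endothelial cells, stromal progenitors and osteoprogenitors, given with no test for the same reason. Mcm7, which hosts a paralogous microRNA cluster and encodes a replicative helicase subunit, was called higher in myeloma cells than in each niche type, by 1.56, 1.67 and 1.51.

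Calls between myeloma and niche cells were then counted. Myc, Mir17hg and Snord69 were left out of these counts. Of the other 7 members, 4 were called higher in myeloma than in endothelial cells and 0 lower, where 43.2% of all 12683 genes were called and 26.3% were called higher. Against stromal progenitors 5 were called higher and 0 lower (all genes 41.9% called, 22.5% higher). Against osteoprogenitors 3 were called higher and 0 lower (all genes 40.0% called, 19.9% higher). Over the settings run, the counts were 4 to 6, 4 to 7 and 2 to 3. The median log2 difference of all genes was 0.24, 0.12 and 0.09 in these comparisons. The count against stromal progenitors includes Mxd4. Of the 5 nucleolar protein genes, Npm1, Ncl and Nop56 were called higher in all 3 comparisons, Gnl3 in 2 and Fbl in 0.

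Npm1 (chromosome 11, 33152498 to 33164142) was at 572, 683, 586, 529 and 603 RPKM in bone lining myeloma libraries D, E, G, I and J and at 498, 628, 469, 685 and 534 RPKM in central marrow ones. The 28 niche libraries had 56.5 to 227 RPKM. All 10 myeloma libraries were above all 28 niche libraries. The log2 difference was 2.50 against endothelial cells (SE 0.23, limma adjusted p = 1.53e-11), 2.58 against stromal progenitors and 2.03 against osteoprogenitors.

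Ncl (chromosome 1, 86344719 to 86359455) was at 62.9, 56.3, 98.0, 48.0 and 16.9 RPKM in the bone lining and 57.9, 69.4, 45.0, 49.5 and 48.6 RPKM in the central marrow, against 1.37 to 26.1 RPKM in the niche. Bone lining library J was the lowest of the myeloma libraries and lay inside the niche range. The log2 differences were 2.52, 2.31 and 2.03 against endothelial cells, stromal progenitors and osteoprogenitors, and all 3 were called (limma adjusted p at most 0.000393). Ncl and Npm1 were called in these comparisons in each of the 22 settings run.

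Nop56 (chromosome 2, 130274367 to 130279313) encodes a core protein of box C/D particles, the class to which Snord69 belongs. Its myeloma levels were 78.1, 91.4, 191, 39.2 and 99.5 RPKM in the bone lining and 104, 62.1, 54.1, 94.4 and 84.9 RPKM in the central marrow. Endothelial cells had 1.38 to 26.4 RPKM and stromal progenitors 0.897 to 31.9 RPKM, below every myeloma library, while osteoprogenitors reached 71.7 RPKM. It was higher in myeloma cells by 3.60, 3.26 and 1.80 on the log2 scale (limma adjusted p = 3.84e-06, 1.97e-05 and 0.0206). The last of these calls was lost without the libraries of letter D (1.46, limma adjusted p = 0.103) and with niche libraries of healthy mice only (0.90, limma adjusted p = 0.374).

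Gnl3 (chromosome 14, 31012433 to 31019131) averaged 190 RPKM in myeloma cells and 112 RPKM in osteoprogenitors. Osteoprogenitors had 48.5, 101, 86.7 and 111 RPKM in healthy mice (L, M, N, O) and 225, 55.1, 105 and 162 RPKM in myeloma-bearing mice (D, G, I, J), overlapping with the myeloma libraries. Endothelial cells (0.302 to 85.6 RPKM) and stromal progenitors (6.21 to 72.9 RPKM) lay below all myeloma libraries. Gnl3 was called higher in myeloma cells than in those 2 types, by 3.09 and 3.08, and not against osteoprogenitors (0.85, limma adjusted p = 0.195). Over 22 settings that last difference ran from 0.58 to 1.12 and was called in 0, with limma or voom-limma adjusted p from 0.0462 to 0.449. Osteoprogenitors exceeded stromal progenitors by 2.23 (limma adjusted p = 0.00291) and endothelial cells by 2.25 on the log2 scale (limma adjusted p = 0.000733).

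Snord69 was at 0 in 23 of the 28 niche libraries, where 3 reads would be worth at most 5.02 RPKM. Endothelial library N of healthy mice (59.8 RPKM, 75 reads), stromal progenitor library D of myeloma-bearing mice (45.9 RPKM, 37 reads) and osteoprogenitor library J of myeloma-bearing mice (47.0 RPKM, 34 reads) were the exceptions above 1 read. Its log2 difference in myeloma cells was 2.45 against endothelial cells, 2.49 against stromal progenitors and 2.43 against osteoprogenitors (1.74 with niche libraries of myeloma-bearing mice only). These differences are a description with no test, since Snord69 passed the filter on low values through the myeloma libraries, whose values entered its choice.

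Odc1 (chromosome 12, 17544808 to 17551502) encodes ornithine decarboxylase, the first enzyme of polyamine synthesis and a textbook target of Myc. It was at 39.3, 17.6, 25.3, 24.5 and 41.6 RPKM in bone lining myeloma cells and at 17.8, 23.1, 25.0, 20.2 and 15.4 RPKM in the central marrow. Niche libraries reached 48.5 RPKM, so the ranges overlapped. None of the 6 comparisons of cell types called it by limma, and the log2 differences of myeloma cells were 0.84, 0.96 and 0.35. Under other settings it was called higher than in endothelial cells by voom-limma, without letter O and with healthy niche libraries only (1.76, limma adjusted p = 0.0223), against -0.081 with niche libraries of myeloma-bearing mice only. Against stromal progenitors it was called by voom-limma and without letter O. Reads of Odc1 are uncertain, since 42.2% of the 50-base stretches of its transcript also occur in other genes. The shares were 40.9% for Npm1, 37.6% for Nop56 and 73.0% for Fbl, and 0% for Myc, Mxd4 and Gnl3.

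Fbl (chromosome 7, 28168893 to 28179269) was at 0 to 2.27 RPKM over all libraries, with a median of 3 reads. Gapdh, an abundant enzyme gene with 90.4% of its stretches shared, likewise had a median of 61.5 reads in this table. How far shared sequence lowered the values of Fbl was not tested, so its level cannot be read as absent expression. Its log2 difference between myeloma and endothelial cells was 0.79, below the fold threshold (limma adjusted p = 0.00532).

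Mxd4 (chromosome 5, 34176580 to 34187710) varied more between libraries than between cell types. In endothelial cells it was at 41.8, 0.193, 43.6, 4.67 and 53.3 RPKM in healthy mice (C, L, M, N, O) and at 0, 0, 4.01, 0 and 70.7 RPKM in myeloma-bearing mice (D, E, G, I, J). Both groups held high and near-zero libraries. Mxd4 was called higher in myeloma cells than in stromal progenitors (1.87, SE 0.86, limma adjusted p = 0.0812), a call made in 13 of 22 settings. It was lost without letter D, E, J, L, N or O in turn (limma adjusted p between 0.123 and 0.233), without the pair of stromal progenitor libraries rich in neutrophil RNA (1.54, limma adjusted p = 0.194) and with niche libraries of healthy mice only (1.22, limma adjusted p = 0.372).

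The E-box CACGTG, which reads the same on both strands and is the preferred site of Myc with Max and of Mxd proteins with Max, was searched in RefSeq promoters (GRCm38.p6, 250 bases before to 50 bases after the start). It was found in 1 of 6 matched members, Mxd4, and in 7.15% of all 32851 promoters. The Mxd4 stretch is printed with the motif, 219 bases before the start, in capitals (chr5:34187871-34187960, minus strand).
Mxd4 promoter: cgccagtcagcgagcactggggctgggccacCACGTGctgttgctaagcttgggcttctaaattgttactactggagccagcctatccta
The windows of Ncl, Nop56, Odc1 and Gnl3 did not hold these letters. That of Mir17hg (115044140 to 115044439) did not either, but it began downstream of the miR-17 hairpin (115043671 to 115043754). It therefore lay inside the microRNA cluster and says nothing of the promoter of the host.

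**Figure D3:**
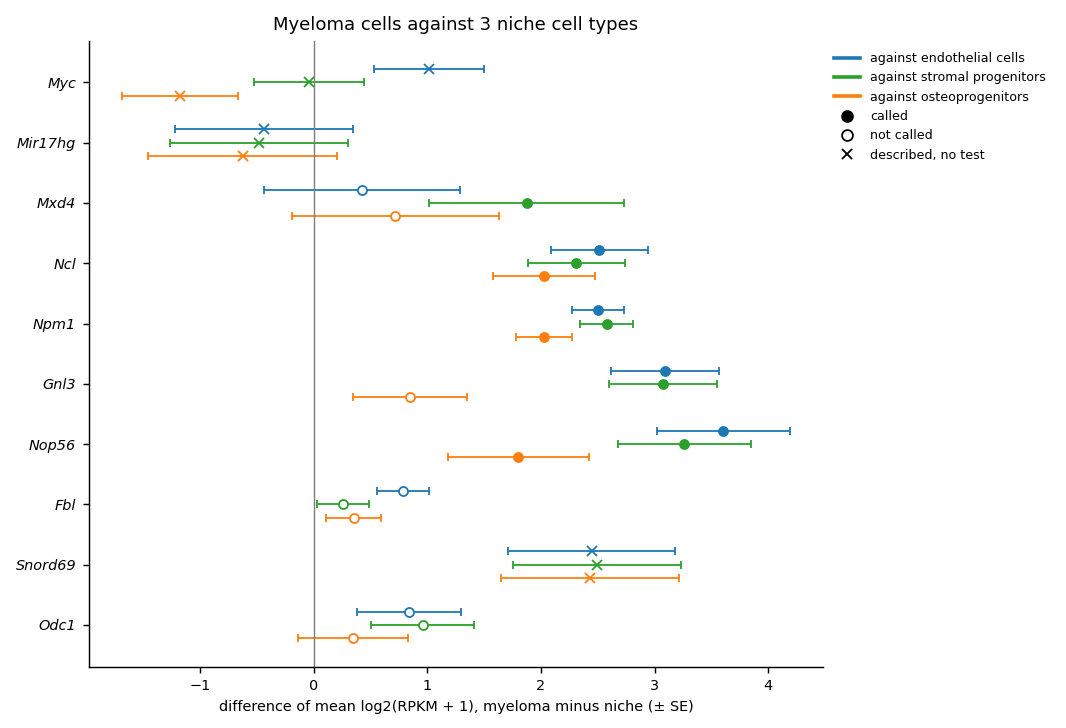
Difference of mean log2(RPKM + 1) ± SE (horizontal axis) of each member in myeloma cells against endothelial cells, stromal progenitors and osteoprogenitors, with filled points for called members, open points for members not called and crosses for Myc, Mir17hg and Snord69, which are described with no test. Ncl, Npm1 and Nop56 are called higher in all 3 comparisons (against osteoprogenitors, the Nop56 call was lost under other settings), and Myc lies at 1.02 against endothelial cells (-0.0704 with niche libraries of healthy mice only) and at -1.17 against osteoprogenitors.

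Ribosome assembly genes that are no members were examined beside the nucleolar ones. In myeloma cells 48 of 59 were called higher than in endothelial cells, 49 than in stromal progenitors and 45 than in osteoprogenitors, with 0 lower in each, where 26.3%, 22.5% and 19.9% of all genes were called higher. The medians of the list were 2.36, 2.06 and 1.76 on the log2 scale. Rcl1 (4.29), the endonuclease gene Nob1 (4.24) and Mrto4 (4.23) had the largest differences against endothelial cells. Nhp2, an H/ACA particle protein, led against osteoprogenitors (3.83), at 602 ± 162 RPKM in myeloma cells (SD, n = 10) and 51.1 ± 34.7 RPKM in osteoprogenitors (SD, n = 8). The summed level of the list ran from 3420 to 5674 RPKM in the 10 myeloma libraries and from 859 to 2619 RPKM in the 28 niche libraries, with no overlap.

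**Figure D4:**
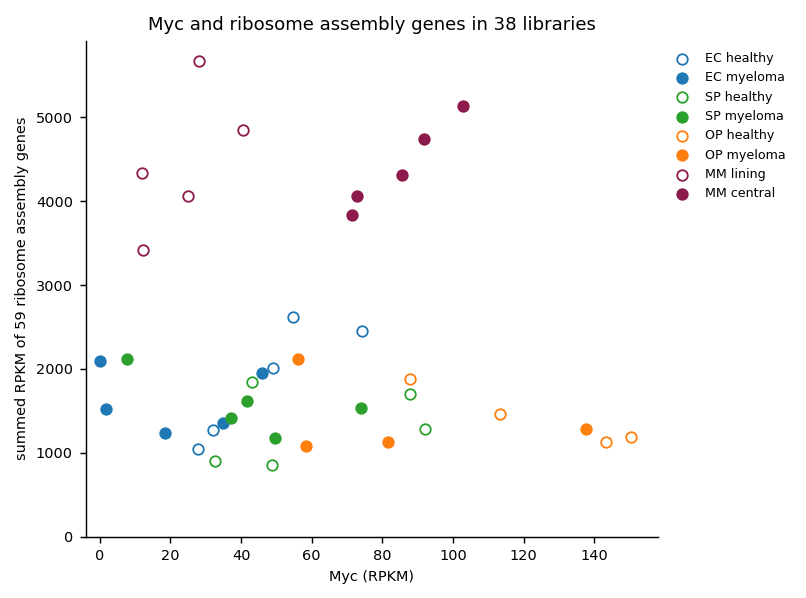
Myc level in RPKM (horizontal axis) against the summed RPKM of 59 ribosome assembly genes (vertical axis) in 38 libraries, marked by group. Myeloma libraries span 3420 to 5674 RPKM in summed level with Myc at 12.1 to 103 RPKM, and the 28 niche libraries reach at most 2619 RPKM.

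RNA polymerase I genes, which transcribe ribosomal RNA, were called higher in myeloma cells for 7, 6 and 4 of 14 against endothelial cells, stromal progenitors and osteoprogenitors, with 0 lower, where 26.3%, 22.5% and 19.9% of all genes were called higher. Polr1e was called in all 3 comparisons (2.68, 2.85 and 2.22). Metabolic targets of Myc were called higher for 24, 22 and 19 of 32 and lower for 0, 1 and 3. The amino acid transporter gene Slc7a5 was at 41.2 ± 22.9 RPKM in myeloma cells (SD, n = 10) and averaged at most 2.98 RPKM in a niche type. The glycolytic genes Hk2 (-2.19) and Ldha (-1.06) and the transaminase gene Bcat1 (-2.51) were lower in myeloma cells than in osteoprogenitors.

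Of 9 polyamine enzyme genes, 2, 2 and 1 were called higher and 3, 2 and 3 lower against endothelial cells, stromal progenitors and osteoprogenitors, where 26.3%, 22.5% and 19.9% of all genes were called higher and 16.9%, 19.3% and 20.1% lower. Srm, the spermidine synthase gene next after Odc1 in the pathway, averaged 181 ± 41.7 RPKM in myeloma cells and was called higher than in endothelial cells (5.72) and stromal progenitors (3.06). Sat1, whose enzyme breaks polyamines down, averaged 69.7 ± 33.4 RPKM in myeloma cells and 572 to 1078 RPKM in the niche types, and was lower in all 3 comparisons (-3.998, -3.12 and -3.37).

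Of the Myc network, 11, 10 and 7 of 19 genes were called higher in myeloma cells and 0, 1 and 1 lower, where 26.3%, 22.5% and 19.9% of all genes were called higher and 16.9%, 19.3% and 20.1% lower. Mycbp, a Myc-binding protein gene, differed by 3.58, 3.15 and 3.55, and the Max-binding repressor gene Mxd3 by 2.57 against osteoprogenitors. The ubiquitin ligase gene Mycbp2 was the one called lower, against stromal progenitors (-1.19) and osteoprogenitors (-1.05).

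Listed targets of the miR-17-92 microRNAs were called higher for 3, 4 and 4 of 14 and lower for 4 in each comparison, where 26.3%, 22.5% and 19.9% of all genes were called higher and 16.9%, 19.3% and 20.1% lower. The cell cycle factors E2f2 (2.55, 2.88 and 2.77) and E2f3 (3.40, 3.31 and 2.64) were higher in myeloma cells. Tgfbr2, Ctgf and Thbs1, genes of the TGF-beta response and matrix, were lower, with -9.28 for Ctgf against stromal progenitors. Proliferation genes were called higher for 18 of 18 in all 3 comparisons, and immediate-early genes were called lower for 13 of 14 in each. The part of cell type, cell line and sorting in these differences cannot be told apart, since each myeloma library came from the GFP+ gate and each niche library from a surface marker gate of the bone lining.

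Niche cell types were also compared with each other. Endothelial cells and stromal progenitors differed in 0 of 10 members (all genes 25.5% called) by limma, with 2 members at an unadjusted p below 0.05, and in 2 members by voom-limma. Endothelial cells were below osteoprogenitors in 3 members, Myc, Gnl3 and Nop56 (-1.80, limma adjusted p = 0.0300), where 27.9% of all genes were called (10.4% higher, 17.5% lower). The Nop56 call was lost without the libraries of letter J (-1.41, limma adjusted p = 0.138) and with niche libraries of myeloma-bearing mice only (-1.21, limma adjusted p = 0.325). Osteoprogenitors differed from stromal progenitors in 1 member, Gnl3, where 8.48% of all genes were called and 4.90% were called higher.

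In the niche, myeloma-bearing and healthy mice were compared to ask whether the growth genes moved in non-tumour cells. No member was called in any niche cell type, and no member's groups were free of overlap. Over all genes, the shares without overlap, below and above healthy mice, were 0.343% and 0.571% in endothelial cells, 0.343% and 0.354% in stromal progenitors and 1.32% and 1.34% in osteoprogenitors. In endothelial cells 0 of 8 members tested were called by limma or by voom-limma, with 0 at an unadjusted p below 0.05 by limma and 1 by voom-limma (all 7880 genes, 0% called by limma). By limma the counts were 0 of 7 and 0 in stromal progenitors (all 8747 genes, 0% called), and 0 of 8 and 1 in osteoprogenitors (all 8664 genes, 0.0115% called). The background depended on the fit, since limma over all 38 libraries called 150, 28 and 24 genes in endothelial cells, stromal progenitors and osteoprogenitors, with 0 members called and 2, 0 and 0 members at an unadjusted p below 0.05 (3, 0 and 0 by voom-limma over all 38). A member's lack of a call does not show that its level was the same.

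The mean of Myc in myeloma-bearing mice minus that in healthy mice was below 0 in each type, with log2 differences of -2.17 (SE 1.07) in endothelial cells, -0.70 in stromal progenitors and -0.63 (SE 0.44) in osteoprogenitors. None passed (limma adjusted p = 0.925, 0.980 and 0.981). The endothelial difference came with libraries E and J at 0.185 and 1.76 RPKM. Library G of myeloma-bearing mice (18.5 RPKM) also lay below all healthy ones (27.9 to 74.2 RPKM), and D and I (45.8 and 35.0 RPKM) lay among them. Stromal progenitors had 48.6, 43.1, 87.9, 32.6 and 91.9 RPKM in healthy mice and 41.7, 73.9, 37.1, 7.66 and 49.6 RPKM in myeloma-bearing mice. These overlapped except for library I of the latter, which was below all healthy ones.

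Mir17hg in stromal progenitors was at 12.49, 0, 5.50, 3.41 and 0.191 RPKM in healthy mice (C, L, M, N, O) and at 42.9, 4.14, 0.741, 29.1 and 26.2 RPKM in myeloma-bearing mice (D, E, G, I, J). Libraries D, I and J exceeded every healthy library, and E and G did not. The difference was 1.89 on the log2 scale (SE 1.11, limma adjusted p = 0.956). Gnl3 there averaged 14.2 ± 8.51 RPKM in healthy and 38.4 ± 23.2 RPKM in myeloma-bearing mice (SD, n = 5 each), with a difference of 1.35 (SE 0.67, limma adjusted p = 0.956).

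In osteoprogenitors, Nop56 was the member with an unadjusted p below 0.05. It was at 21.9, 40.1, 71.7 and 58.3 RPKM in healthy mice and 2.50, 18.9, 6.004 and 54.6 RPKM in myeloma-bearing mice. Libraries D, G and I were below all healthy ones, and library J was not. The difference of -1.81 (SE 0.82) had a limma adjusted p of 0.981.

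In endothelial cells, Odc1 had 13.2, 0.0670, 1.38, 14.2 and 37.2 RPKM in healthy mice and 20.1, 29.1, 21.0, 48.5 and 16.8 RPKM in myeloma-bearing mice, a difference of 1.84 (SE 1.10, limma adjusted p = 0.931). The groups overlapped through healthy library O. Mxd4 differed by -2.19 there (SE 1.44, limma adjusted p = 0.941). Ncl, Npm1, Nop56, Gnl3 and Mir17hg differed by at most 0.79 in size in endothelial cells.

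**Figure D5:**
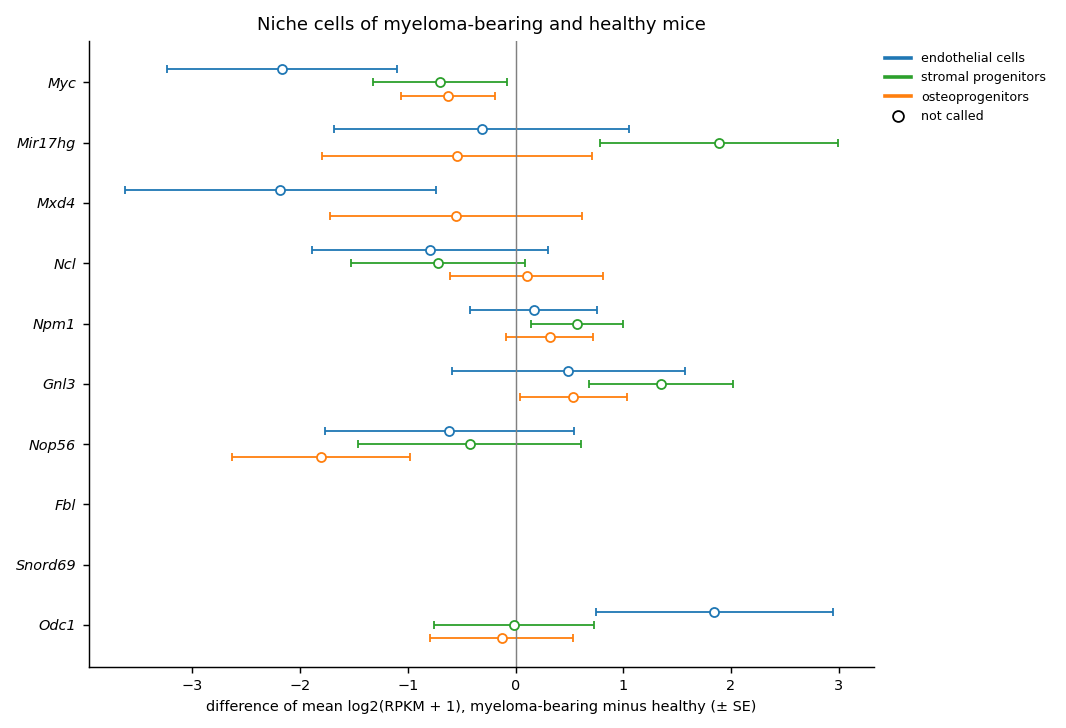
Difference of mean log2(RPKM + 1) ± SE (horizontal axis) of each tested member between myeloma-bearing and healthy mice in endothelial cells, stromal progenitors and osteoprogenitors. All points are open, since no member was called, and Myc lies at -2.17, -0.70 and -0.63.

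In the 5 growth lists, 0 genes were called by limma or voom-limma when each niche type was fitted on its own libraries. Voom-limma over all 38 libraries called 3 ribosome assembly genes and 1 metabolic gene in endothelial cells, set beside its calls over all genes at the end. Of the ribosome assembly genes, 43, 46 and 48 were tested in endothelial cells, stromal progenitors and osteoprogenitors. By limma 4, 2 and 1 had an unadjusted p below 0.05, as did 5.25%, 5.00% and 4.87% of all genes. The medians of the ribosome assembly genes were 0.077, 0.25 and 0.051 on the log2 scale, against 0.071, -0.00062 and -0.028 for all genes. The other 4 lists together had 2, 2 and 2 genes at an unadjusted p below 0.05. Differences between niche types in the change with myeloma were tested for 9 members, and 0 were called by limma or by voom-limma, with 0 at an unadjusted p below 0.05 by limma. Limma called at most 0.00854% of all 11713 genes there, and voom-limma on the recovered reads called 5, 3 and 1 genes. Over all 38 libraries limma called 12, 22 and 16 genes and voom-limma 42, 15 and 13, again with 0 members. Large differences are not excluded by these values, since that of Mir17hg between stromal progenitors and osteoprogenitors was 2.44 (SE 1.85) on the log2 scale.

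The likeness between members was described by Pearson's r over the 8 group means of log2(RPKM + 1), which share libraries and cell types. Ncl went with Npm1 (r = 0.918) and with Nop56 (0.887), and Npm1 with Gnl3 (0.856). Myc had r = 0.0272 with Npm1, 0.395 with Mir17hg and -0.261 with Odc1. Among 12682 genes, those most like Myc were Ptpn23 (0.918), Mad2l1bp (0.912), Tom1l2 (0.904), Sdccag8 (0.896) and Itgb3bp (0.895). Those most like Mir17hg were Tada3 (0.866), Hip1r, Plekha8, Ints1 and Camta2 (0.792). For Mxd4 they were 1700012B15Rik, Ap3s1, 2310009A05Rik, Pigq and Rabggtb (0.953 to 0.949). The highest of 12682 values over only 8 means are high by selection, so these genes are a description and not shown to follow the members. Ptpn23, for one, averaged only 0.823 to 3.14 RPKM over the groups.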

How the data were processed

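Poly(A) RNA of 100 sorted cells per library was amplified by SmartSeq2 and sequenced as single 50-base reads. The authors aligned reads to GRCm38 (mm10) with STAR 2.4.0, counted them with featureCounts (Subread 1.4.5-p1) under default settings, kept expressed genes and deposited RPKM values computed with edgeR. The default of featureCounts does not use strand. All RPKM values (100%) were whole multiples of 1 read within 0.0001, so that reads could be recovered.

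Values were tested as log2(RPKM + 1) with limma 3.58.1 in R 4.3.3 (trended empirical Bayes), after a filter that kept genes exceeding 1 RPKM in 4 or more libraries of a comparison, and p-values were adjusted by Benjamini-Hochberg over all genes tested. Calls needed an adjusted p below 0.1 and a log2 difference above 1 in size. Conditions and myeloma sites were fitted on their own libraries, and cell types on all 38 libraries, a cell type being the mean of its 2 groups. A fold change on this scale understates that of low genes. The fits were tested on simulated data.

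The members and gene lists were chosen with earlier results of these data known. The genes named were all members, up to 3 called genes with the largest rise and fall per list and comparison, the 5 genes most like Myc, Mir17hg and Mxd4 over group means, and small nucleolar RNAs inside members. Alternatives were another pseudocount, filters, scaling, threshold and fit, voom-limma on recovered reads, libraries left out and the replicate letter as a block. No member protein sequence was used here.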

Additional observations from a re-analysis of the deposited data

Results flagged for a closer look

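Of 78 groups of libraries examined over the 10 members, 7 held a library far from the others by Dixon's criterion on the log2(RPKM + 1) scale, which chance alone would give in about 5% of groups. Snord69 accounts for 5 of them, in groups where the other libraries had no read. They were endothelial library N of healthy mice (59.8 RPKM), endothelial library D of myeloma-bearing mice (0.908 RPKM, 1 read), stromal progenitor library M of healthy mice (0.787 RPKM, 1 read), stromal progenitor library D of myeloma-bearing mice (45.9 RPKM) and osteoprogenitor library J of myeloma-bearing mice (47.0 RPKM). Mxd4 stood out in stromal progenitor library G of myeloma-bearing mice (9.54 RPKM). Gnl3 stood out at the low end in endothelial library L of healthy mice (0.302 RPKM).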

How the results depend on the processing

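Of 2364 values of members under other settings, 2171 kept their direction and side of the threshold (or, for the bone lining comparison, stayed within 1 SD), 145 moved, 31 lost a call, 16 gained one and 1 reversed. The reversed value was that of Myc in myeloma against endothelial cells, a described difference with no test. It was -0.0704 with niche libraries of healthy mice only. These tallies hold such values of Myc, Mir17hg and Snord69 in myeloma cells and describe the settings only. In the myeloma counts these 3 members are left out. Of the other 7, 4, 5 and 3 were called against endothelial cells, stromal progenitors and osteoprogenitors (all genes 43.2%, 41.9% and 40.0% called). Over the settings run the counts were 4 to 6, 4 to 7 and 2 to 3. Against osteoprogenitors the 2 came without letter D and with niche libraries of healthy mice only. Over all 10 members, the count for endothelial cells against stromal progenitors was 0, with 1 at a pseudocount of 0.1 and 2 with voom-limma. For osteoprogenitors against stromal progenitors it was 1, and 2 with voom-limma. The cause was not tested. Leaving out each letter in turn gave 0 to 1 members for endothelial cells against stromal progenitors (1 without D and 1 without I). It gave 2 to 3 for endothelial cells against osteoprogenitors and 0 in each niche comparison of myeloma-bearing with healthy mice. Fbl was called higher in myeloma than in endothelial cells with voom-limma (4.45) and with a pseudocount of 0.1 (2.77). Voom-limma on the recovered reads called 7185, 6727 and 5860 genes in myeloma cells against endothelial cells, stromal progenitors and osteoprogenitors, where limma on RPKM called 5475, 5308 and 5067. Chosen after seeing the data, voom-limma over all 38 libraries called 250, 73 and 26 genes in endothelial cells, stromal progenitors and osteoprogenitors with myeloma and 0 members, where limma within each type called 0, 0 and 1. In endothelial cells its 250 calls, among 12683 genes tested, held 3 ribosome assembly genes (2 higher and 1 lower) and 1 metabolic gene. Median-of-ratios scaling moved the median of all genes by less than 0.1 in the myeloma comparisons. Correlations of deviations between libraries of the same letter were all below 0.1, the highest 0.0850. In some pairs of groups the same letter exceeded every other letter and in others it did not, so weak pairing by letter is not excluded. With the letter as a replicate block, 0, 3 and 1 members were called in the comparisons between niche cell types, as without the block. Snord69 and Fbl rest on few reads.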
